A study of Canis lupus with 23 samples.

Results

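Interferon-stimulated genes were measured in biopsies of 23 naturally occurring canine tumors, 1 tumor per dog and 1 Affymetrix Canine Genome 2.0 array per tumor. The set was a fixed list of 41 gene symbols, and a gene was taken when a probeset of the array carried its symbol in the platform annotation. That gave 33 of the 41 genes, read by 64 probesets, among 15115 annotated genes in all. The other 8 genes (OASL, IFIT1, IFIT3, DDX58, SAMD9, BST2, ZBP1 and SP110) were not analysed here. DHX58 stayed below the filter on low signal, so 32 genes entered the comparisons among 9972 kept genes.

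The study profiled tumors of pet dogs to ask whether expression data could guide the choice of a drug within days of a biopsy. By diagnosis there were 7 lymphomas, which arise from lymphocytes, and 5 melanomas, which arise from pigment cells. Connective tissue tumors numbered 4, with 2 labelled sarcoma and 2 soft tissue sarcoma (STS), and 3 were transitional cell carcinomas (TCC), which arise from the bladder lining. A histiocytic sarcoma, whose cells descend from macrophages or dendritic cells, a hemangiosarcoma, whose cells resemble the vessel lining, a nasal tumor and a hepatocellular carcinoma (HCC) came from 1 dog each. The labels state no treatment, age or breed, and no normal tissue is among the 23 samples. By the study's report only dogs with untreated disease could enrol, and its cohorts included Scottish terriers with TCC and golden retrievers with lymphoma. Which labelled tumors came from those cohorts is not stated, so breed may run along with tumor type and was not tested. Tumors are called by the number in their label, as in lymphoma 0 to lymphoma 6.

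Levels are log2(signal + 16), averaged over the probesets of a gene, so a difference of 1 is a 2-fold change of signal + 16 and the scale has its floor at 4. Levels of different genes cannot be set against each other on this array. Markers of the labelled cell types were read first. The mean level of 8 melanocyte markers was 10.3 to 11.2 in the melanomas and at most 6.35 in any other tumor, and that of 6 urothelial markers was 11.1 to 11.9 in the TCCs and at most 6.88 elsewhere. The HCC led in 2 hepatocyte markers (14.1, against at most 8.79) and the hemangiosarcoma in 6 endothelial markers (11.3, against at most 9.40). The 4 sarcomas had 10.9 to 12.2 for 13 fibroblast and matrix markers, and melanoma 3 reached 11.3. Markers of T cells and B cells divided the lymphomas, with T cell means of 7.36 to 11.1 and B cell means of 6.51 to 10.7. In pieces of whole tumor, fewer cells of a type and less RNA per cell cannot be told apart.

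Interferons are secreted proteins that warn cells of viruses and of damaged or misplaced nucleic acid. Type I interferons act through the receptor IFNAR1-IFNAR2 and switch on antiviral genes such as the MX and OAS families. Interferon gamma, made mainly by activated T cells and natural killer cells, acts through its own receptor and induces IRF1, the guanylate-binding proteins (GBPs), chemokines such as CXCL10 and the antigen-presentation genes. In tumors these genes can be expressed by the tumor cells and by the immune cells among them.

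Across the 4 tumor types with replicates, few of the 32 genes differed by type. The F test of limma over lymphoma, melanoma, sarcoma and TCC (19 tumors) passed an adjusted p of 0.05 for 4 of 32 genes, GBP1, TRIM22, OAS3 and IFI35, or 12.5%, against 35.6% of all genes tested. At an unadjusted p of 0.05 the count was 6. Sarcoma here joins both labels. With soft tissue sarcoma alone as that type, 10 of 32 genes passed the F test at the adjusted p, and the share of all genes in that setting is not given. The replicated types were each set against the mean of the other 3 types. A call needed an adjusted p below 0.05 together with a log2 fold change of 1 or more in either direction. In lymphoma 7 genes were higher and 1 lower, against 6.95% of all genes higher and 12.1% lower. In TCC 1 gene was lower, and none of the 32 was called in melanoma or sarcoma.

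Lymphoma carried most of the differences between types. The 7 genes that were higher there were GBP1, TRIM22, IFI44L, OAS3, IFI35, PARP9 and EPSTI1, and the 1 that was lower was RSAD2. The median log2 fold change over the 32 genes was 0.65 in lymphoma, against 0.07 over all genes, and 10 genes were higher and 2 lower at an unadjusted p of 0.05. By role, the calls were 1 of 4 large GTPases, 1 of 3 OAS genes, 4 of 8 other induced genes, and 1 higher and 1 lower among 6 antiviral enzymes and restriction factors. None of the 4 transcription factors, the 4 genes of the ISG15 system, the 2 IFIT genes or the sensor IFIH1 was called.

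GBP1, a guanylate-binding protein that attacks the membranes around intracellular microbes and is a classic target of interferon gamma, showed the clearest separation. Its level ran from 10.35 to 13.02 in the lymphomas (median 11.39). It was 9.99, 9.46, 8.84, 7.72 and 4.98 in the melanomas, 9.16 and 9.50 in the sarcomas, 6.97 and 6.17 in the soft tissue sarcomas, and 6.30, 6.24 and 5.91 in the TCCs. All 7 lymphomas lay above all 12 tumors of the other types. The log2 fold change was 3.89 ± 0.59 (SE) with an adjusted p of 7.1e-05. The 3 GBP1 probesets gave 3.41, 3.72 and 4.53.

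TRIM22, a RING-finger protein that restricts several viruses in human cells, had the next largest difference. It ran from 8.64 to 13.82 in the lymphomas (median 12.17), against 7.58 to 10.67 in the melanomas (median 9.53). The sarcomas had 10.96 and 11.21, the soft tissue sarcomas 7.92 and 7.48, and the TCCs 8.53, 7.10 and 7.78. In 5 of 7 lymphomas TRIM22 was above every tumor of the other 3 types, while lymphoma 6 (8.64) and lymphoma 1 (10.24) fell within their range. The log2 fold change was 3.08 ± 0.68 (SE, adjusted p = 0.0021). GBP1 and TRIM22 kept their call in lymphoma in every alternative analysis.

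OAS3 and IFI35 passed both the F test and the lymphoma comparison, with smaller differences. OAS3 makes the 2-5A messenger that activates RNase L, which cuts viral and cellular RNA. It ran from 6.40 to 8.22 in the lymphomas (median 7.25), against 4.59 to 7.33 in the 12 other tumors (median 6.07), a log2 fold change of 1.20 ± 0.32 (SE, adjusted p = 0.0075). All 7 lymphomas were above the median of the other tumors, but only 2 were above their highest value. IFI35, a leucine-zipper protein induced by interferon, ran from 7.70 to 9.32 in the lymphomas (median 8.49), against 6.07 to 8.38 in the others (median 7.36), a log2 fold change of 1.18 ± 0.31 (SE, adjusted p = 0.0068). Here 5 of 7 lymphomas lay above every other tumor.

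The 3 other genes that were higher in lymphoma overlapped more with the other types. PARP9, an ADP-ribosyltransferase that works with DTX3L in the interferon response, ran from 7.85 to 10.89 in the lymphomas, against 6.54 to 9.44 in the other tumors (log2 fold change 1.14 ± 0.40, SE, adjusted p = 0.037). EPSTI1, a gene induced by interferon and by contact of epithelium with stroma, ran from 7.79 to 10.60, against 6.30 to 8.89 in the others (1.11 ± 0.40, SE, adjusted p = 0.040). IFI44L, a long-used marker of the type I response, ran from 8.84 to 12.78, against 7.40 to 10.46 in the others (1.55 ± 0.54, SE, adjusted p = 0.033). These calls rested in part on lymphomas 0 and 2, which held the 2 highest values of EPSTI1, IFI44L and PARP9. Without lymphoma 2 the adjusted p was 0.096 for PARP9, 0.107 for EPSTI1 and 0.087 for IFI44L, and without lymphoma 0 it was 0.082 for PARP9, 0.085 for EPSTI1 and 0.084 for IFI44L. Leaving out lymphoma 5 or soft tissue sarcoma 0 also ended all 3 calls. Other single tumors that ended a call were TCC 1 for IFI44L and IFI35, any TCC, melanoma 0 or soft tissue sarcoma 1 for PARP9, and TCC 2, lymphoma 4, melanoma 0, melanoma 4 or soft tissue sarcoma 1 for EPSTI1.

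RSAD2 was the 1 gene that was lower in lymphoma. It encodes viperin, a radical SAM enzyme that makes a chain-terminating nucleotide against viral polymerases. Its level ran from 4.55 to 7.99 in the lymphomas (median 7.36), against 7.65 to 10.12 in the melanomas (median 9.56). The sarcomas had 7.92 and 10.06, the soft tissue sarcomas 4.34 and 6.29, and the TCCs 8.66, 8.87 and 9.40. No lymphoma was above the median of the other tumors, 8.77, but the soft tissue sarcomas overlapped with them. Lymphomas 2 (7.99) and 5 (7.94) were also above melanoma 0 (7.65), melanoma 3 (7.85) and sarcoma 0 (7.92). The log2 fold change was -1.80 ± 0.67 (SE, adjusted p = 0.044), and leaving out any of 11 single tumors put the adjusted p above 0.05, to 0.105 at most. These were the 3 TCCs, lymphomas 1, 4 and 6, melanomas 1, 2 and 4, and both sarcomas. CMPK2, a mitochondrial nucleotide kinase whose gene lies next to RSAD2, was not called, with 5.51 to 8.82 in the lymphomas and 5.53 to 8.14 in the 12 other tumors.

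**Figure D1:**
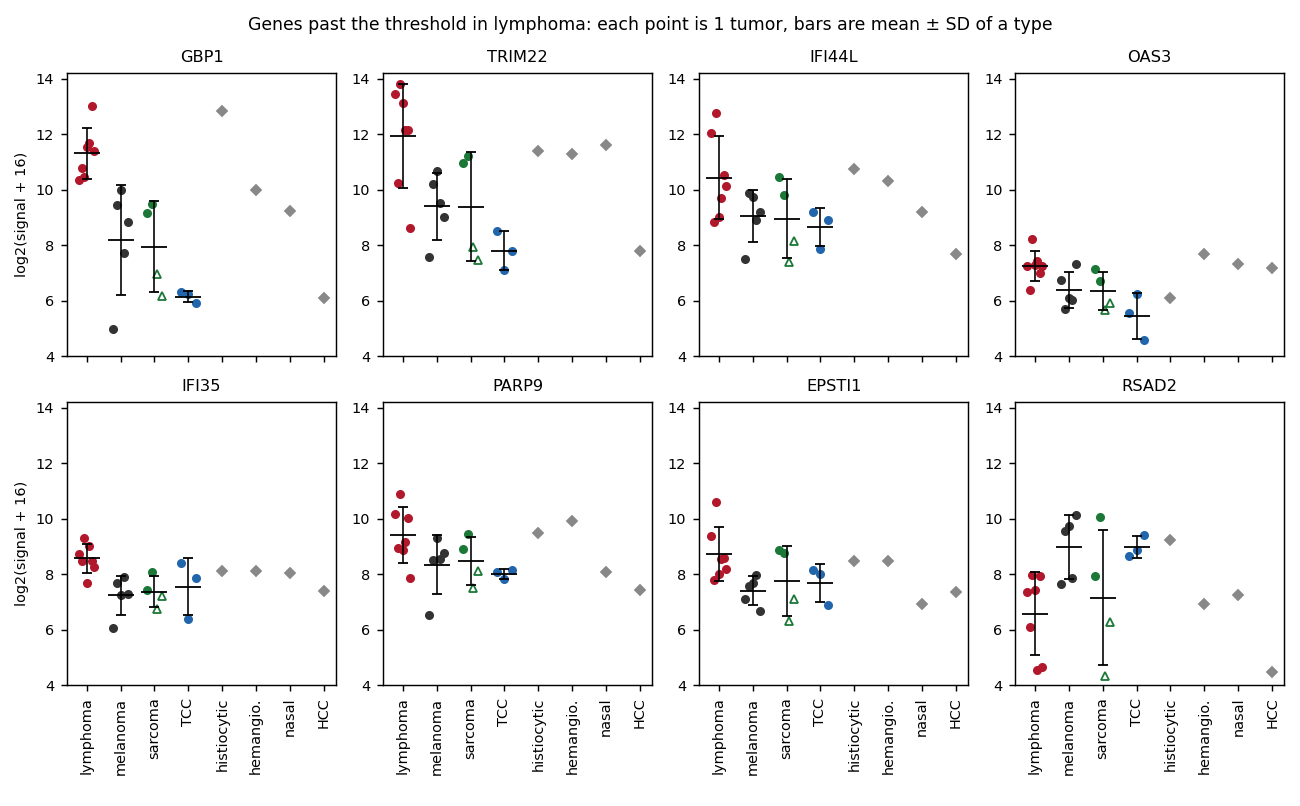
Level, log2(signal + 16), of the 8 genes called in lymphoma in each of 23 tumors, by type. Each point is 1 tumor, open triangles are the 2 soft tissue sarcomas, gray diamonds are the 4 types with 1 tumor, and bars are mean ± SD of a type. The 7 lymphomas lay above all TCCs, sarcomas and melanomas for GBP1, and the groups overlapped for the other 7 genes.

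TCC had low levels of the same GTPase. GBP1 was 6.30, 6.24 and 5.91 in the 3 TCCs, against 4.98 to 13.02 over the 16 lymphomas, melanomas and sarcomas (median 9.74), and its log2 fold change was -3.0 ± 0.78 (SE, adjusted p = 0.014). No TCC was above the median of the others, but melanoma 0 was lower than all of them. Without TCC 0, TCC 1 or TCC 2 the adjusted p was 0.057, 0.061 and 0.072. The share of all genes called was 6.82% higher and 4.36% lower in TCC. Of the 32 genes, 3 were lower and 0 higher at an unadjusted p of 0.05, and the median log2 fold change was -0.48, against -0.08 over all genes. The median was 0.02 in melanoma, with 1 gene higher and 1 lower at an unadjusted p of 0.05, and -0.19 in sarcoma, with none. All genes were called at 2.55% higher and 1.77% lower in melanoma, and at 4.33% higher and 1.71% lower in sarcoma.

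T cell and B cell markers were also higher in lymphoma. Of 11 T cell markers kept, 8 were higher in lymphoma than in the other 3 types, with a median log2 fold change of 2.58, and of 7 B cell markers 5 were higher, with a median of 3.27. The share of all genes higher in lymphoma was 6.95%. The mean T cell level was 7.36 to 11.1 in the lymphomas, against 5.50 to 7.96 in the sarcomas of both labels, 5.66 to 7.46 in the melanomas and between 5.56 and 5.73 in the TCCs. Their part in the levels of the interferon-stimulated genes was not tested.

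The larger variation lay between tumors of the same type. The SD within types had a median of 1.12 over the 32 genes, against 0.567 over all genes. It was above the median of all genes for 30 of the 32 and above their 75th percentile for 25. The exceptions below the median were IRF9 (0.502) and IFIT5 (0.556). The largest were 1.82 for GBP5, 1.62 for TRIM22, 1.56 for XAF1 and 1.56 for RSAD2. Their median level was 8.11, against 8.19 for all genes.

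The share of the variance that lay between the 4 types was correspondingly small. Its median was 17.3% over the 32 genes, against 36.6% over all genes. For ISG15, a ubiquitin-like protein joined to newly made proteins, it was 1.84%, with an SD within types of 1.45. For GBP1 it was 70.6%, the largest of the 32. The spread was wide in lymphoma (median SD 1.12, against 0.502 for all genes), in sarcoma (1.30, against 0.565) and in melanoma (0.89, against 0.541). The sarcoma value includes the difference between its labels, whose median was 2.02 over the 32 genes, against 0.06 over all genes. In TCC the median SD was 0.672, against 0.357 for all genes.

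**Figure D2:**
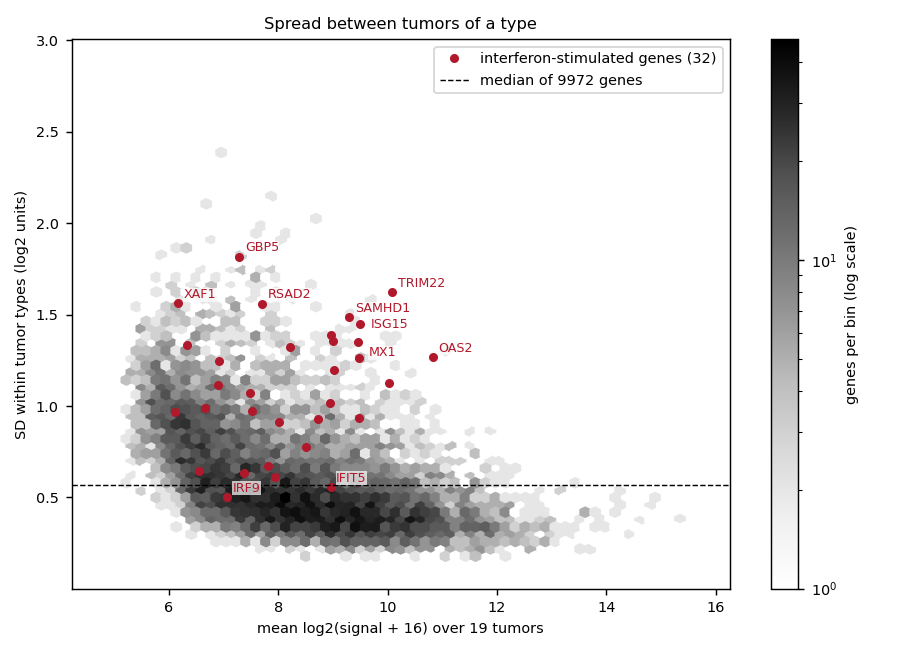
SD within tumor types in log2 units (vertical axis) against the mean level over 19 tumors (horizontal axis). Red points are the 32 interferon-stimulated genes, gray bins hold all kept genes on a log count scale, and the dashed line is the median SD of all genes, 0.567. All but IRF9 and IFIT5 of the red points lie above the line.

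**Figure D3:**
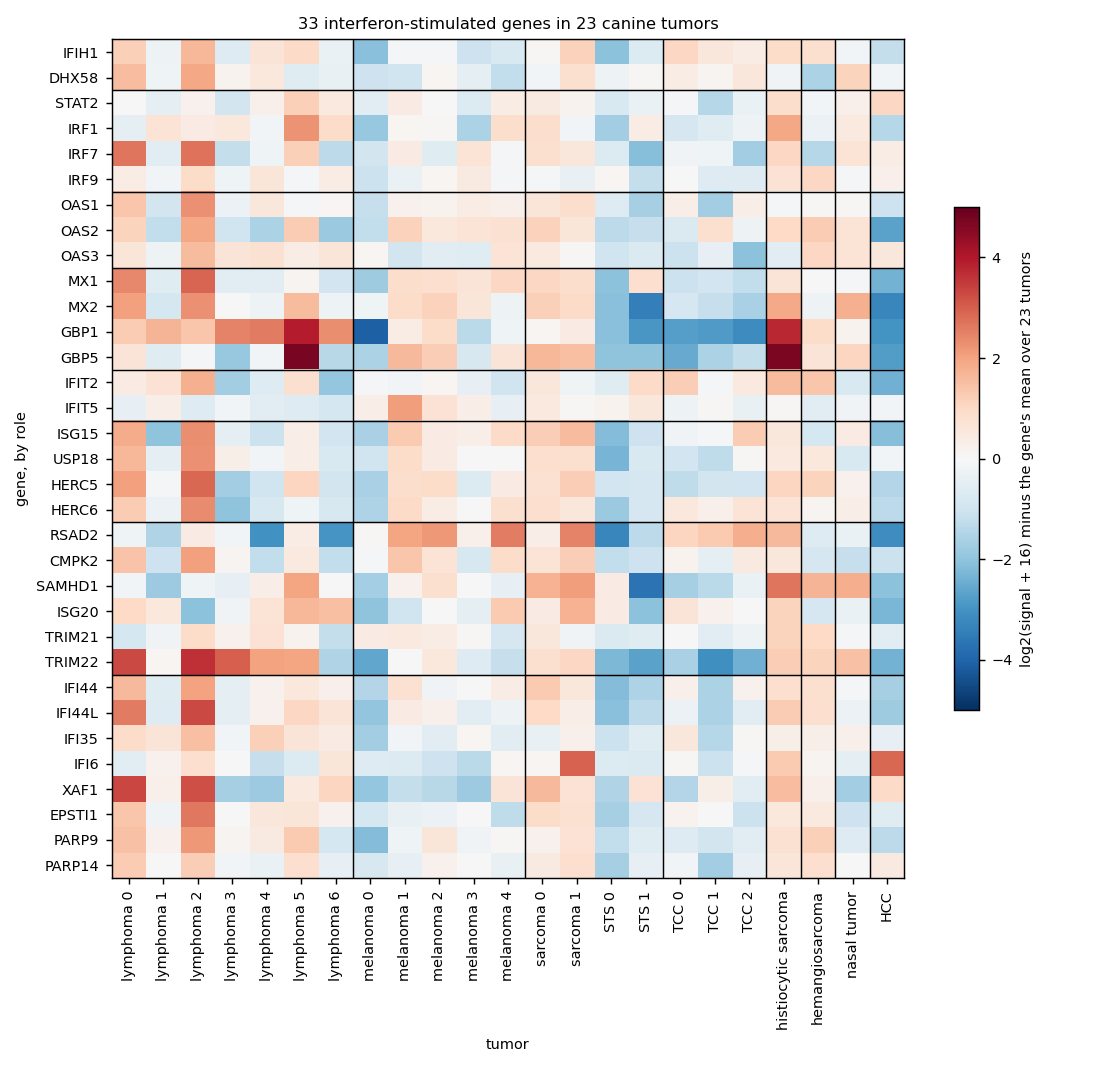
Level of 33 interferon-stimulated genes (rows, grouped by role between black lines) in 23 tumors (columns, grouped by type) as log2(signal + 16) minus the gene's mean over all tumors. Red columns run through most rows in lymphomas 0 and 2, blue columns in melanoma 0, both soft tissue sarcomas (STS) and the HCC. GBP1 and GBP5 are darkest in lymphoma 5 and the histiocytic sarcoma.

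Among the lymphomas, 3 tumors stood above the other 4. Each tumor was set against the mean of the other tumors of its type, and the median of that deviation over the 32 genes was 1.74 in lymphoma 2, 0.91 in lymphoma 0 and 0.43 in lymphoma 5. It was -0.52 in lymphoma 4, -0.73 in lymphoma 1, -0.73 in lymphoma 3 and -0.88 in lymphoma 6. Over all genes the same median stayed between -0.07 and 0.03 in the 7 lymphomas. Lymphoma 2 had the highest value of all 23 tumors for 20 of the 33 genes, a count that was not made over all genes.

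Lymphomas 0 and 2 were high in the MX genes and those of the ISG15 system. The MX proteins are dynamin-like GTPases that trap viral nucleoproteins. MX1 was 11.76 in lymphoma 0 and 12.28 in lymphoma 2, against 8.39 to 9.51 in the other 5 lymphomas, and MX2 was 11.07 and 11.28, against 8.13 to 10.58. The ISG15 system followed the same order: ISG15 was 11.22 in lymphoma 0 and 11.72 in lymphoma 2, against 7.39 to 9.71 in the others. HERC5, the human ligase that attaches ISG15, was 10.30 and 11.12 in these tumors, against 6.51 to 9.33, and USP18, which removes it and dampens receptor signaling, was 9.16 and 9.76, against 6.72 to 7.83.

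The inducing factor and the death-related gene of the set were high in the same pair. IRF7, the transcription factor that amplifies interferon production, was 9.04 in lymphoma 0 and 9.09 in lymphoma 2, against 5.06 to 7.57 in the other 5 lymphomas. XAF1, which opposes the caspase inhibitor XIAP, was 9.55 and 9.43, against 4.42 to 7.30. Of the OAS genes only OAS1 set both tumors apart, at 10.25 in lymphoma 0 and 11.15 in lymphoma 2, against 7.98 to 9.44 in the other lymphomas. OAS2 was 11.95 and 12.79, against 8.97 to 12.12, and OAS3 was 7.25 and 8.22, against 6.40 to 7.43. DHX58, the sensor homologue that regulates IFIH1 and was below the filter, had its highest levels of all 23 tumors here as well, 7.43 in lymphoma 0 and 7.82 in lymphoma 2, against 4.30 to 7.01 elsewhere. Genes that did not follow included ISG20, an exonuclease, at 7.78 in lymphoma 0 and 4.74 in lymphoma 2, against 6.63 to 8.47 in the other lymphomas. GBP1 had its 2 lowest lymphoma values in this pair, 10.35 and 10.46, against 10.77 to 13.02.

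Lymphomas 0 and 2 were also those with the highest B cell markers. The mean of 7 B cell markers was 10.72 in lymphoma 0 and 10.64 in lymphoma 2, against 6.51 to 9.73 in the other lymphomas. For all 7 markers 1 or the other of these tumors held the highest lymphoma value, also a count not made over all genes. The mean over 11 T cell markers was 7.83 in lymphoma 0 and 7.70 in lymphoma 2, against 7.36 in lymphoma 1 and 9.18 to 11.08 in the remaining 4. Lymphoma 1, the lowest of the 7 in T cell markers, had a B cell mean of 8.07 and was low in the interferon-stimulated genes. The part of the B cell content in the levels was not tested.

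Lymphoma 5 was highest of the lymphomas in other genes. GBP5, a guanylate-binding protein that promotes inflammasome assembly, was 12.21 there, against 5.60 to 8.12 in the other 6 lymphomas. GBP1 was 13.02, against 10.35 to 11.67. IRF1, a transcription factor of the interferon gamma response, was 9.79, against 7.05 to 8.46, and SAMHD1, which restricts viruses by breaking down nucleotides, was 11.50, against 7.71 to 9.87. OAS2 was high in all 3 tumors, at 12.12 in lymphoma 5, 11.95 in lymphoma 0 and 12.79 in lymphoma 2, against 8.97 to 9.84 in the other 4. MX1 was 9.51 and HERC6 8.80 in lymphoma 5, below the levels of lymphomas 0 and 2 (11.76 and 12.28 for MX1, 10.28 and 11.38 for HERC6).

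The histiocytic sarcoma shared this profile. It had 12.21 of GBP5, 12.86 of GBP1, 9.51 of IRF1 and 12.20 of SAMHD1, and its SAMHD1 was the highest of 23 tumors. The levels of GBP1, GBP5 and IRF1 were highest in lymphoma 5 and next highest in the histiocytic sarcoma. The plot of MX1 against GBP5 shows both tumors apart from lymphomas 0 and 2. In MX2 these tumors lay closer, with 10.58 in lymphoma 5 and 10.92 in the histiocytic sarcoma, against 11.07 and 11.28 in lymphomas 0 and 2.

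**Figure D4:**
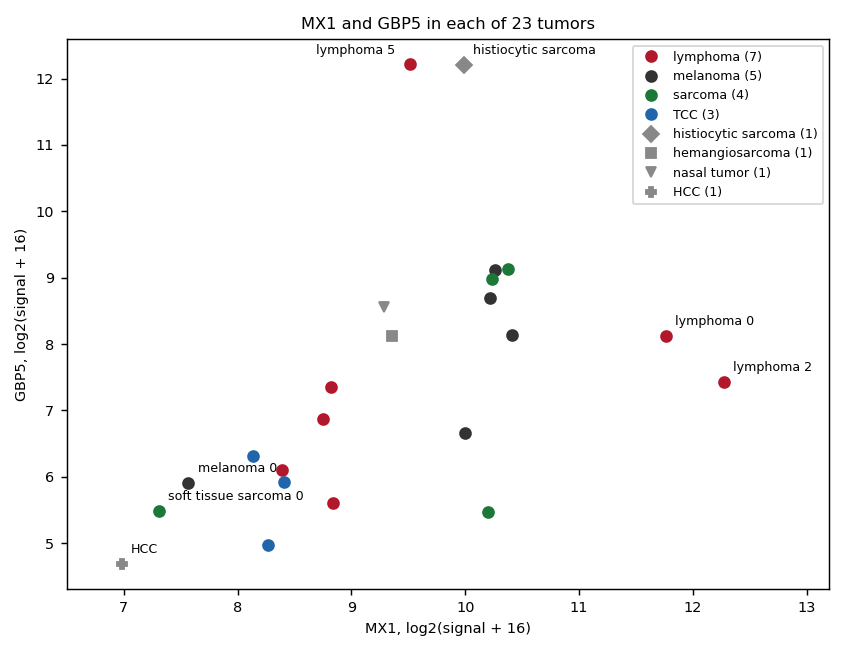
GBP5 (vertical axis) against MX1 (horizontal axis), both as log2(signal + 16), in each of 23 tumors by type. Lymphoma 5 and the histiocytic sarcoma lie at a GBP5 level of 12.21, with MX1 at 9.51 and 9.99, and lymphomas 0 and 2 lie at an MX1 level of 11.76 and 12.28, with GBP5 at 8.12 and 7.43.

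The list of interferon gamma targets outside the set was highest in the same 2 tumors. The mean of its 12 kept genes was 11.14 in lymphoma 5 and 10.87 in the histiocytic sarcoma, against 7.08 to 9.99 in the other 21 tumors. The genes named next were picked after their values were seen. IFNG, the gene of interferon gamma, was 11.09 in lymphoma 5 and 9.20 in the histiocytic sarcoma, against 4.08 to 6.99 in the other 21 tumors. The chemokine CXCL10 was 13.79 and 13.08, against 5.04 to 11.39. IDO1, a tryptophan-degrading enzyme, was 12.73 and 11.06, against 4.69 to 10.41, and GBP6 was 12.54 and 12.71, against 5.82 to 10.05. Other targets differed: PSMB9 was 11.91 in lymphoma 5, the lowest of the 7 lymphomas, and CD274, which encodes the checkpoint ligand PD-L1, was highest in sarcoma 1 at 11.11, against 10.55 in lymphoma 5. Lymphomas 0 and 2 had an IFNG level of 6.64 and 4.78. The 7 markers of cytotoxic lymphocytes, cells that make interferon gamma, averaged 9.68 in lymphoma 5 and 10.1 in the histiocytic sarcoma, against 5.28 to 8.91 in the other 21 tumors. Their part in the levels was not tested.

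In melanoma the outstanding tumor was a low one. The median deviation from the other melanomas was -1.53 in melanoma 0, against -0.05 to 0.67 in melanomas 1 to 4. Over all genes the median deviation of melanoma 0 was -0.11. GBP1 was 4.98 in melanoma 0, against 7.72 to 9.99 in the others. MX1 was 7.57, against 9.99 to 10.42, and ISG15 was 7.76, against 9.72 to 10.70. TRIM22 was 7.58, against 9.02 to 10.67, and PARP9 was 6.54, against 8.52 to 9.31. OAS1 and OAS2 were also below all other melanomas, at 7.73 and 9.63, against at least 9.05 and 11.39.

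Markers of T cells, cytotoxic lymphocytes and macrophages were low in melanoma 0 as well, and the neutrophil markers S100A8 and S100A9 were high. It had the lowest value of the 5 melanomas for 6 of 11 T cell, 6 of 7 cytotoxic and 8 of 12 macrophage markers, and its cytotoxic mean was 5.51, against 6.23 to 8.68 in the others. Lowest values of melanoma 0 were not counted over all genes. The mean of 4 neutrophil markers was 10.74, against 6.94 to 8.97. It rested on S100A8 (15.07, against 7.73 to 13.06) and S100A9 (15.13, against 7.79 to 12.66). MMP9 was 5.49, against 4.79 to 5.94, and MPO was 7.26, against 4.23 to 7.14. Melanomas 0 and 1 had the highest 3' to 5' log2 signal ratios of the control genes, 5.06 and 5.05, a measure of RNA degradation. The median deviation of melanoma 1 was 0.67, the highest of the 5 melanomas. Neither the immune cell content nor the RNA state was tested as a part of the difference. XAF1 was 4.28 in melanoma 0, its lowest value of the 23 tumors, 4.40 to 5.02 in melanomas 1 to 3, and 6.86 in melanoma 4.

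The sarcomas divided along their labels. The median deviation from the other 3 tumors of the joined type was 1.11 in sarcoma 0 and 1.33 in sarcoma 1, against -1.51 in soft tissue sarcoma 0 and -1.08 in soft tissue sarcoma 1. Both sarcomas were above both soft tissue sarcomas for 26 of 32 genes, against 19.6% of all genes, and below them for 0, against 15.3%. The 6 genes that overlapped were ISG20, IFIT2, IFIT5, IRF1, IRF9 and XAF1. The median difference was 2.02 over the 32 genes, against 0.06 over all genes.

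With 2 tumors on each side, none of these differences passed the adjusted threshold. A limma contrast of the labels, added after the values were seen, called 0 of 32 genes, and 16 were higher at an unadjusted p of 0.05. It called 0.12% of all genes higher and 0.0301% lower. MX2 was 10.19 and 9.98 in the sarcomas, against 6.92 and 5.57 in the soft tissue sarcomas, a log2 fold change of 3.84 with an adjusted p of 0.070, the lowest of the 32. RSAD2 was 7.92 and 10.06, against 4.34 and 6.29 (3.68, adjusted p = 0.18). GBP5 was 9.13 and 8.98, against 5.48 and 5.47 (3.58, adjusted p = 0.35), and SAMHD1 was 11.26 and 11.62, against 9.94 and 5.85 (3.55, adjusted p = 0.17).

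Most immune cell markers were higher in the same 2 tumors. Both sarcomas were above both soft tissue sarcomas for 9 of 11 T cell, 6 of 7 cytotoxic, 9 of 12 macrophage and 4 of 7 B cell markers, against 19.6% of all genes. They were below for 1 B cell marker, EBF1, and for 0 markers of the other lists, against 15.3% of all genes. The mean cytotoxic level was 7.11 and 8.91 in the sarcomas, against 5.40 and 5.33 in the soft tissue sarcomas, and the mean macrophage level was 10.4 and 10.3, against 9.40 and 8.02. The 3' to 5' log2 signal ratio of the control genes was 3.25 and 3.47 in the sarcomas, against 3.56 and 4.15 in the soft tissue sarcomas. The part of these cells and of the RNA state in the levels was not tested. With soft tissue sarcoma alone as the type, 10 of 32 genes passed the F test and 1 was called in sarcoma. The shares of all genes in that setting are not given, and 35.6% of all genes passed the F test with the labels joined.

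**Figure D5:**
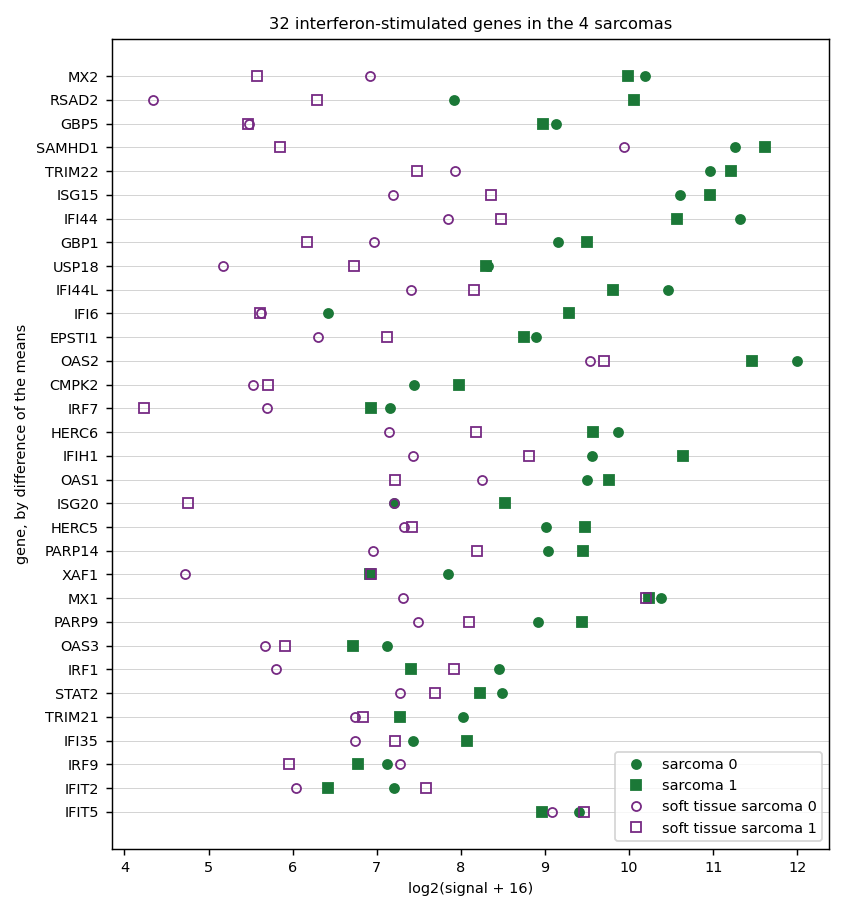
Level, log2(signal + 16), of 32 interferon-stimulated genes (rows, ordered by the difference of the means) in the 4 sarcomas. Filled green symbols are the 2 tumors labelled sarcoma and open purple symbols the 2 labelled soft tissue sarcoma. Filled symbols lie to the right of both open ones in 26 rows.

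The 3 TCCs had the smallest spread of the 4 types, as they did over all genes. Their median deviations were 0.31, -0.33 and 0.17. IFIH1, the cytosolic sensor of long double-stranded RNA, was 10.51, 10.06 and 9.86 in the TCCs, against 7.41 to 11.17 in the other 16 tumors, and ISG15 was 9.21, 9.34 and 10.67. OAS1 was 7.16 in TCC 1, against 9.23 and 9.21 in TCC 0 and TCC 2, while OAS2 was higher in TCC 1 (11.66, against 10.11 and 10.61), so the OAS genes did not keep 1 order. GBP5 was 4.98, 5.92 and 6.31, and TRIM22 had an adjusted p of 0.083.

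Where a type had 1 tumor there was no replicate, and each gene is given as its difference from the mean of the other 22 tumors. The histiocytic sarcoma was at least 1 log2 unit higher for 16 of 32 genes, against 10.4% of all genes, and lower for 0, against 7.95%. The 5 largest differences were in GBP5 (4.94), GBP1 (3.96), SAMHD1 (2.81), IRF1 (2.04) and MX2 (2.0). OAS3 (-0.57) and OAS1 (-0.09) were not above the mean.

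The hemangiosarcoma was at least 1 unit higher for 9 genes, against 11.6% of all genes, and lower for 1, against 8.98%. SAMHD1 (1.76), IFIT2 (1.47) and OAS2 (1.33) led, and IRF7 (-1.49) was the gene that was lower. Its 12 macrophage markers averaged 11.6, next to 11.8 in the histiocytic sarcoma and 7.95 to 10.4 in the other tumors, which were not tested as a part of the difference. The nasal tumor was higher for 4 genes, SAMHD1 (1.89), MX2 (1.87), TRIM22 (1.53) and GBP5 (1.13), against 11.2% of all genes. It was lower for 3, XAF1 (-1.83), CMPK2 (-1.19) and EPSTI1 (-1.10), against 9.48%.

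The HCC was low in most of the set. It was at least 1 unit lower for 20 of 32 genes, against 28.3% of all genes, and higher for 3, against 13.5%. The median difference was -1.37, against -0.32 over all genes. MX2 (-3.39), RSAD2 (-3.24), GBP1 (-3.11), GBP5 (-2.92) and OAS2 (-2.80) were the furthest below, and MX1, OAS2, GBP5, IFIT2 and ISG20 had their lowest value of all 23 tumors here. Lowest values of the HCC were not counted over all genes. IFI6, a mitochondrial and endoplasmic reticulum protein that protects cells from apoptosis, was 9.19 in the HCC, 3.0 above the mean of the others. STAT2 was 9.09 and 1.09 above that mean. The HCC was also the lowest of the 23 tumors in the mean of the T cell markers (5.45, against at least 5.50), B cell markers (4.98, against at least 5.14) and cytotoxic markers (5.28, against at least 5.33), whose part was not tested. Its 3' to 5' log2 ratio of the control genes was 4.11, against 2.60 to 5.06 in the other tumors, and the part of the RNA state was not tested.

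The genes varied together across tumors once the mean of each type was taken off. The median correlation over the 496 pairs of the 32 genes was 0.47 across 19 tumors, against 0.01 over all pairs of genes, and 46.6% of the pairs reached 0.5, against 3.77% of all pairs. The points share array scaling, tumor cell content and RNA quality, and 19 tumors set the precision. Without lymphomas 0 and 2 the median was 0.50, and within single types it was 0.47 over 7 lymphomas, 0.57 over 5 melanomas and 0.79 over 4 sarcomas. The 4 sarcomas hold both labels, so their 0.79 includes the difference between the labels.

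IFI44L, ISG15 and IFIH1 had the highest mean correlation with the other genes, 0.63 each. IFIT5 (-0.03), ISG20 (0.10), TRIM21 (0.23), OAS3 (0.24) and IRF1 (0.25) had the lowest. IFIT5, an RNA-binding protein, was highest in melanoma 1, and ran from 8.03 to 9.63 in the other 22 tumors. GBP1 was closest to SAMHD1 (0.74) and GBP5 (0.71). GBP5 was closest to STAT2 (0.72), followed by GBP1, SAMHD1 and OAS2 (0.71 each). TRIM22 was closest to PARP9 (0.83) and USP18 (0.82).

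Gene pairs that lie side by side, by the order of genes in the RefSeq annotation of the assembly mCanLup2.hap1, differed in closeness. The correlation was 0.94 for IFI44 and IFI44L, 0.93 for HERC5 and HERC6, 0.85 for RSAD2 and CMPK2, 0.71 for GBP1 and GBP5 and 0.60 for MX1 and MX2. MX1 was closer to HERC6 (0.90), which is no neighbour of it, and MX2 to EPSTI1 (0.84). IFI44 with IFI44L, the GBPs and the MX genes are also similar in sequence. Signal shared between probesets was not tested for any pair that lies side by side. Of the 16 genes with more than 1 probeset, 8 had all pairs of probesets at a correlation of at least 0.5 and none had a pair below 0. The EPSTI1 call rested on 2 of 3 probesets: their log2 fold changes in lymphoma were 1.80 and 1.87, and that of the third, the dimmest, was -0.35. The ISG15 probesets gave 0.24 and -0.59 in lymphoma.

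The genes outside the set that were most like it were ranked by their correlation with the mean of the 32, type means taken off, across 19 tumors, and 2 symbols that are only locus numbers were passed over. EML5 (0.95), SAMD9L (0.92), WDFY4 (0.90), AHR (0.90), FAM126A (0.90), PLSCR1 (0.90), CLEC12A (0.89), SAMSN1 (0.87), RNF213 (0.86) and CLEC2B (0.85) led the rest of the 9940 genes compared. SAMD9L, PLSCR1 and RNF213 are in the list of other interferon-induced genes, and the other 7 are in none of the interferon lists.

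Other genes of the pathway were read from lists by role. Of 15 interferon genes listed, 4 were annotated and only IFNK was kept, with no call. All 4 receptor chains kept (from 7 listed) were measured without a call. Of 5 signaling genes kept from 9, JAK1, the kinase of both receptors, and PTPN6, a phosphatase that dampens signaling in blood cells, were higher in lymphoma, with log2 fold changes of 1.04 ± 0.16 and 1.65 ± 0.26 (SE, adjusted p = 1.0e-04 and 8.8e-05). Of 9 sensors and adaptors kept from 18, TLR9, STING1 and IRF8 were higher in lymphoma (1.02, 1.17 and 1.97, adjusted p = 0.021, 0.042 and 0.00033), and IRF8 was lower in TCC (-2.07, adjusted p = 0.0048). Among all genes 6.95% were higher in lymphoma and 4.36% lower in TCC.

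Among the targets of interferon gamma outside the set, 12 were kept from 19 and 5 were higher in lymphoma, where 6.95% of all genes were: PSMB8 (2.39), PSMB9 (1.95) and PSMB10 (1.41), the catalytic subunits of the immunoproteasome, GBP6 (1.82) and B2M (1.01), the light chain of MHC class I. Their adjusted p ran from 0.00018 to 0.034. B2M was lower in TCC (-1.30, adjusted p = 0.037). PSMB8 ran from 10.5 to 12.0 in the lymphomas, against 6.88 to 9.56 in the melanomas, 10.5 and 10.2 in the sarcomas, 7.89 and 8.03 in the soft tissue sarcomas, and 8.73, 7.55 and 7.82 in the TCCs.

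Of 21 other interferon-induced genes kept from 38, 5 were higher in lymphoma, SP100 (2.19), LGALS9 (1.34), DTX3L (1.26), TNFSF10 (1.15) and RNF213 (1.02), with adjusted p from 5.9e-06 to 0.029. Among all genes 6.95% were higher in lymphoma, and 6.82% were higher and 4.36% lower in TCC. SP100, a nuclear body protein, was lower in TCC (-1.54, adjusted p = 0.0049). DDX60, an interferon-induced helicase, was the 1 gene of the 6 pathway lists that was higher in TCC. It was 10.26, 11.28 and 9.45 in the TCCs, against 5.07 to 9.85 in the other 16 tumors of the replicated types, a log2 fold change of 2.48 ± 0.73 (SE, adjusted p = 0.028).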

How the data were processed

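Tumor RNA was amplified (NuGEN Ovation Pico WTA), hybridised to Affymetrix Canine Genome 2.0 arrays and summarised by the authors with MAS5. The deposited values are intensities, 1 linear signal per probeset, already scaled: the trimmed mean, with 2% left out at each end, was 499.9 to 500.0 on all 23 arrays. Between 19.8% and 27.2% of the signals on an array lay under 16, and precision is limited by the number of arrays. Of 42924 probesets, 29254 have 1 symbol in the platform annotation, 439 several and 13231 none, and symbols were used as it gives them.

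A pseudocount of 16 was added before the log2, and probesets of a symbol were averaged. A gene was kept if it exceeded 7.03, the median over all gene values, on at least 3 arrays. Types came from the diagnosis labels, with sarcoma and soft tissue sarcoma joined. The 4 replicated types were fitted together (19 tumors) with limma 3.58.1 under R 4.3.3 (lmFit and contrasts.fit, then eBayes on a variance trend, 15 residual and 4.77 prior degrees of freedom). Tests were two-sided, adjusted by Benjamini-Hochberg over all kept genes, and each type was set against the unweighted mean of the other 3. The fit was tested on simulated data. Single tumors have no test. The labels name no batch.

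The interferon-stimulated genes, the role and pathway lists and the markers were chosen with earlier results of these data known. All genes of the set could be named, with full statistics for those called. In single tumors and within types the 5 genes with the largest deviation could be named, and further genes were named there after their values were seen, as were IFNG, CXCL10 and IDO1. Called genes of the pathway lists and the 10 genes most like the set were named. Alternatives changed the pseudocount (1 or 64), the normalization (quantile), the filter (none), the probeset (the brightest), the variance trend, the sarcoma type (soft tissue sarcoma alone) and the call rule (adjusted p alone), added the number in the label as a block, or left out each tumor.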

Additional observations from a re-analysis of the deposited data

Results flagged for a closer look

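In groups of 4 to 7 tumors, 99 groups of values (33 genes in lymphoma, melanoma and sarcoma) were checked for a tumor whose gap to the nearest other exceeded Dixon's 95% critical share of the range, and 7 did. Chance alone flags about 1 in 20 groups. Melanoma 0 was the low tumor in 4 of them: OAS1 was 7.73 there, against 9.05 to 9.26 in the other melanomas, OAS2 was 9.63, against 11.39 to 12.01, MX1 was 7.57, against 9.99 to 10.42, and PARP9 was 6.54, against 8.52 to 9.31. XAF1 was high in melanoma 4, at 6.86, against 4.28 to 5.02. GBP5 was high in lymphoma 5, at 12.21, against 5.60 to 8.12 in the other lymphomas. MX1 was low in soft tissue sarcoma 0, at 7.31, against 10.20 to 10.38 in the other 3 sarcomas.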

How the results depend on the processing

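No result changed direction. Of the 32 genes, 4 passed the F test, and the count was 10 with soft tissue sarcoma alone as the type, 1 without lymphomas 0 and 2 (left out together after the data were seen) and 3 to 6 with single tumors left out. In lymphoma 8 were called, 4 without lymphomas 0 and 2, 5 without melanomas 0 and 1 (also chosen after the data were seen) and 4 to 8 with single tumors left out: 4 without TCC 1, and 5 without TCC 2, lymphoma 0, lymphoma 2, lymphoma 5 or soft tissue sarcoma 0. In TCC 1 was called, 0 without TCC 0, TCC 1 or TCC 2, and 2 without lymphoma 1, lymphoma 6 or soft tissue sarcoma 0. In melanoma the count was 0 in every alternative, and in sarcoma it was 0 except for 1 with soft tissue sarcoma alone. The cause of these changes was not tested. The labels do not say what their number marks. Over 23 pairs of tumors of different types that share a number, the correlation of their deviations was -0.12 to 0.09, and no pair was over 0.1. With the replicate block the counts were 2 by the F test, 2 in lymphoma and 0 in TCC.

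Of the called genes, GBP1 (3.28 to 4.53) and TRIM22 (2.40 to 3.64) kept their lymphoma call in all 29 alternatives. The call was lost in 2 of 28 for OAS3, 4 of 29 for IFI35, 7 for IFI44L, 12 for PARP9, 14 for EPSTI1 and 18 for RSAD2, and in 4 of 29 for GBP1 in TCC. With a pseudocount of 64, which shrinks differences of dim genes, the histiocytic sarcoma had 9 genes at least 1 unit higher, the hemangiosarcoma 5 higher and 0 lower, the nasal tumor 1 lower and the HCC 1 higher. In the hemangiosarcoma 3 were lower with a pseudocount of 1, 4 after quantile normalization and 2 with no filter. The median SD within types was 0.87 to 1.28 and the median correlation 0.43 to 0.54. Dim signals near the floor, as for IFI6, IRF7 and XAF1, limit small differences, and 1 array per tumor leaves single-tumor values without an error.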
